A study of Mus musculus with 16 samples.

Results

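Genes that mark the oligodendrocyte lineage, found by their mouse symbols, were followed through sorted cells of the mouse neocortex, 9 of the 53379 genes counted in every library. Of these, 6 mark oligodendrocyte precursors and their committed daughters (Olig1, Olig2, Sox10, Pdgfra, Cspg4 and Gpr17) and 3 mark differentiation and myelin (Enpp6, Myrf and Mbp). RNA was sequenced from green fluorescent cells of mice at postnatal day 4, in which mosaic analysis with double markers (MADM) on chromosome 7, driven by Emx1-Cre, labels sparse clones of the dorsal forebrain lineage. Green cells were Eed+/+ in control mice and Eed-/- in mice otherwise heterozygous for Eed, whose protein is needed by Polycomb repressive complex 2 (PRC2), the enzyme complex that places a repressive methyl mark on histone H3. Every animal also carried XGFAP-lacZ, a lacZ reporter under the human GFAP promoter, and the labels name the strain CD1 while the study describes a mixed CD1 and C57BL/6 background of both sexes. Green cells of both genotypes were of the same parental origin for chromosome 7, both copies being paternal.

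Cells positive for lacZ are called astrocytes and lacZ-negative cells neurons, so that the neuron gate rests on the absence of a reporter and not on a neuronal marker. There were 5 Eed+/+ astrocyte, 5 Eed-/- astrocyte, 2 Eed+/+ neuron and 3 Eed-/- neuron libraries, each from 1 animal, and 1 further library with conflicting labels entered no comparison. Astrocyte and neuron libraries of the same genotype and replicate number have adjacent library numbers. Whether they came from the same animal is not given by the labels used here. The main cell type test treated all libraries as independent, with a replicate block as an alternative. The libraries held between 211736 and 3178529 reads assigned to genes, with 26.1% to 76.6% of reads aligned uniquely. In all, 5 libraries fell below 1000000 uniquely aligned reads or below 60% alignment: Eed+/+ astrocyte replicate 3, Eed-/- astrocyte replicates 1, 3 and 4, and Eed+/+ neuron replicate 2. All neuron libraries came from the first of 2 runs of library numbers, as did Eed+/+ astrocyte replicates 1 and 2 and Eed-/- astrocyte replicates 1 to 3. Eed itself was at 64.9 and 81.1 TMM-scaled CPM (reads per 1000000 gene reads, TMM being the factor by which edgeR evens out composition between libraries) in Eed+/+ neurons, above the 16.4 to 38.0 CPM of Eed-/- neurons. In astrocytes it was at 3.71 to 76.2 CPM in Eed+/+ and 0 to 17.3 CPM in Eed-/- libraries, which overlapped through the 2 reads of Eed+/+ replicate 3. These counts run over the whole gene, exons outside the deleted region included, and are therefore a partial check of genotype. A summed level of 10 astrocyte markers was 2724 to 22326 CPM on the same scale in Eed+/+ astrocytes, 1457 to 24608 in Eed-/- astrocytes and 6167 to 8770 in neurons. A list of 10 neuron markers summed to 264 to 3509, 3.38 to 2895 and 1042 to 2704 CPM in the same order, so over all libraries both marker lists overlapped between the gates. Among the 10 libraries within the limits, astrocyte markers did not overlap, at 9910 to 24608 CPM in 6 astrocyte and 6167 to 7978 CPM in 4 neuron libraries, while neuron markers did, at 264 to 2895 and 1592 to 2704 CPM.

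Oligodendrocyte precursors arise in waves from the ventral and then the dorsal forebrain, and the Emx1 lineage supplies the dorsal wave around birth. Olig1 and Olig2, neighbouring basic helix-loop-helix factors, and Sox10 specify the lineage, the PDGF receptor encoded by Pdgfra drives precursor division, and Cspg4 encodes the proteoglycan NG2. Cells leaving the precursor state pass through a stage marked by the receptor GPR17 and the choline phosphodiesterase ENPP6 before the regulator MYRF turns on myelin genes such as Mbp. Several of these genes are not exclusive to the lineage: Olig1 and Olig2 are also used by glial progenitors and immature astrocytes, Cspg4 by pericytes and Pdgfra by fibroblasts.

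Promoters of PRC2 targets are known to be rich in CpG dinucleotides, so 3 promoters that differ in CpG number are shown from RefSeq, with each CpG in capitals. The windows run from 250 bases before to 50 after the RefSeq start (GRCm38.p6), which for Enpp6 is also the annotated gene start given further on and for the other 3 genes is not. Entries were used for 4 members, Olig2, Cspg4, Pdgfra and Enpp6. Olig2 (chr16:91225300-91225599, plus strand) held 25 CpG, more than 81.6% of 32851 mouse promoters, for which the median was 7. Pdgfra (chr5:75152001-75152300, plus strand) held 5 and Enpp6 (chr8:46986637-46986936, plus strand) held 4, and Cspg4 held 17. The E-box letters CAGCTG, searched because basic helix-loop-helix factors can bind them, were in none of the 4 windows and in 16.3% of all promoters; the letters read the same on both strands. These are descriptions of sequence and no binding was measured.
Olig2: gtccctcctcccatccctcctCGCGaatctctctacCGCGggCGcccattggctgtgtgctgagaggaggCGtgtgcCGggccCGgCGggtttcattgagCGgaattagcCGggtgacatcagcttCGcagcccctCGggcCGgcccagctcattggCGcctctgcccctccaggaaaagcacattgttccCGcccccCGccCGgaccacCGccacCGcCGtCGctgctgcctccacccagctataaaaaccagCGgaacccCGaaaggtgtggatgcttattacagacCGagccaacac
Pdgfra: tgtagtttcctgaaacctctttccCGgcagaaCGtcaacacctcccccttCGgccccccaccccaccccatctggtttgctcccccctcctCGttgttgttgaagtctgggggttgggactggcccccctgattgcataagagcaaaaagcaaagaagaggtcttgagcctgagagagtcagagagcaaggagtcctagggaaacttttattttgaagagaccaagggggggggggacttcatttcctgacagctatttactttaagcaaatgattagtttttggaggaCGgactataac
Enpp6: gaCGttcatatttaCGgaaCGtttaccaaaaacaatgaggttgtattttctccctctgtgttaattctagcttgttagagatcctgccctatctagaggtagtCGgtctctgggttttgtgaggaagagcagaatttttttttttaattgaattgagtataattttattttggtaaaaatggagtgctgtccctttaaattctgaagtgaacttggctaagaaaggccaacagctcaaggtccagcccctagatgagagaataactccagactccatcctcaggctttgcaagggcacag

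Precursor genes were present in all 4 groups. In the 10 astrocyte libraries each of the 6 precursor genes reached 3 reads in 6 to 9, whereas Enpp6 did so in 2, Myrf in 4 and Mbp in 5. All 9 genes reached 3 reads in 4 of 5 neuron libraries and in 2 of 10 astrocyte libraries, Eed+/+ replicate 1 and Eed-/- replicate 5. The fewest members with 3 reads in a library was 7 among neurons and 1 among astrocytes. In sorted pools a smaller number of cells of a type and less RNA per cell cannot be told apart. A count of 0 allows up to 3 reads, for counting error only. In plain CPM, without TMM scaling, 3 reads are 0.944 in the deepest library and 14.2 in the shallowest.

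**Figure D1:**
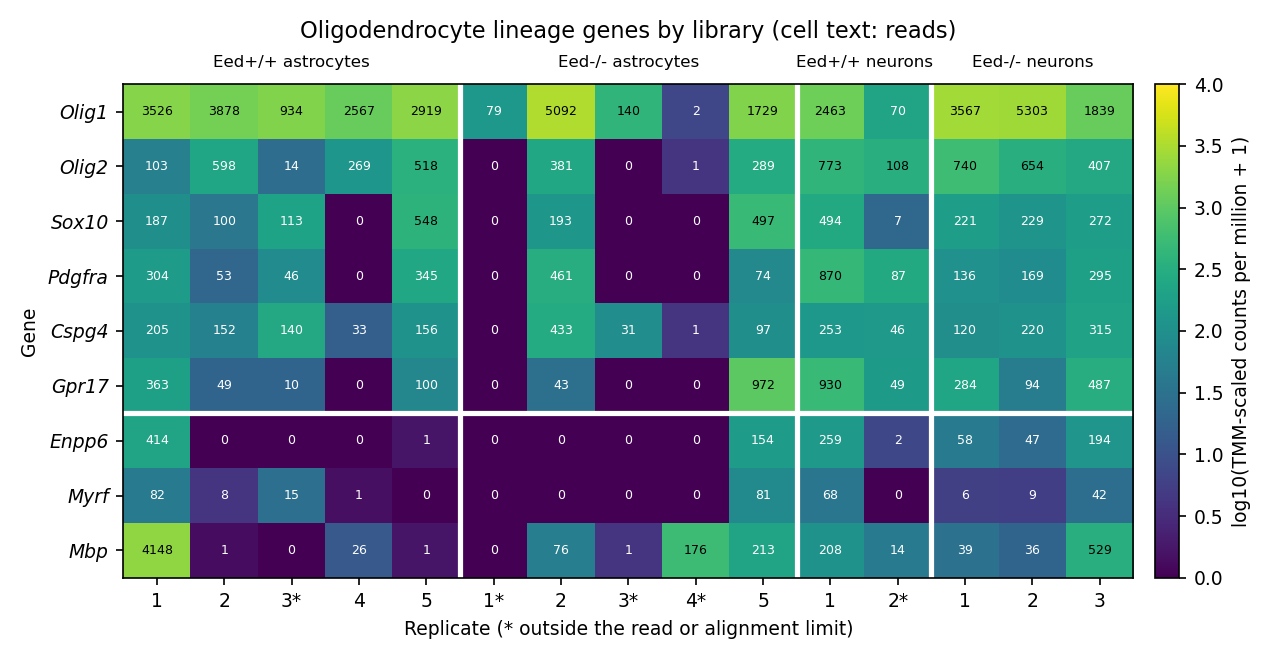
The 9 genes (rows; 6 precursor genes above the white line, 3 differentiation and myelin genes below) in the 15 labelled libraries (columns, by group and replicate). Colour is log10 of TMM-scaled CPM plus 1 and the printed value is the read count; Mbp had 4148 reads in Eed+/+ astrocyte replicate 1 and Enpp6 had reads in 3 of 10 astrocyte and 5 of 5 neuron libraries.

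As CPM per kilobase of exon, Olig1 was the highest member with a mean of 682 ± 469 (SD, n = 15 libraries), and it exceeded Olig2 (85.8 ± 70.0) in 14 of 15 libraries. Olig2 exceeded Sox10 (46.0 ± 49.3) in 10 libraries and was lower in 3. Below them the order was Gpr17 (32.6 ± 51.4), Mbp (27.8 ± 65.9), Pdgfra (13.3 ± 13.8), Cspg4 (9.57 ± 7.07), Enpp6 (7.38 ± 11.4) and Myrf (1.78 ± 2.78). For every neighbouring pair except Olig1 and Olig2 the mean difference was smaller than the SD of that difference over the 15 libraries.

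Olig1 (ENSMUSG00000046160.6, chromosome 16, 91269772 to 91271933 in GRCm38) encodes the transcription factor whose gene lies 44.3 kb from Olig2. In Eed+/+ astrocytes, taken from replicate 1 to 5, it had 3526, 3878, 934, 2567 and 2919 reads, and in Eed-/- astrocytes 79, 5092, 140, 2 and 1729. It had 2463 and 70 reads in Eed+/+ neurons and 3567, 5303 and 1839 in Eed-/- neurons. The low values were those of 3 poorly aligned Eed-/- astrocyte libraries and 1 poorly aligned Eed+/+ neuron library, and among the 10 well-aligned libraries Olig1 kept to 1158 to 3385 CPM. The remaining poorly aligned library, Eed+/+ astrocyte replicate 3, lay inside that range, at 1734 CPM. Olig1 overlaps the annotated gene Gm15966, and reads over both are set aside as ambiguous by the counting.

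Olig2 (ENSMUSG00000039830.8, chromosome 16, 91225457 to 91228677) had 103, 598, 14, 269 and 518 reads in Eed+/+ astrocytes and 0, 381, 0, 1 and 289 in Eed-/- astrocytes. In neurons it had 773 and 108 reads in the Eed+/+ and 740, 654 and 407 in the Eed-/- libraries. The neuron libraries lay between 256 and 579 CPM, overlapping only the upper astrocyte values, which reached 359 CPM from a lowest value of 0. Together Olig1 and Olig2 made up 48.5% to 100% of the reads of the 6 precursor genes in a library.

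Sox10 (ENSMUSG00000033006.9, chromosome 15, 79154908 to 79165240), which acts through the whole lineage, had 187, 100, 113, 0 and 548 reads in Eed+/+ astrocytes and 0, 193, 0, 0 and 497 in Eed-/- astrocytes. Neurons had 494 and 7 reads in the Eed+/+ and 221, 229 and 272 in the Eed-/- libraries. Pdgfra (ENSMUSG00000029231.15, chromosome 5, 75152292 to 75198215) had 304, 53, 46, 0 and 345 reads in Eed+/+ and 0, 461, 0, 0 and 74 in Eed-/- astrocytes. Both genes had no reads in the same 4 astrocyte libraries. For 3 of these libraries alignment was poor, but Eed+/+ astrocyte replicate 4 was well aligned, with 2404944 gene reads, and had 2567 Olig1 reads beside 0 of Pdgfra, Sox10 and Gpr17.

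Pdgfra was read in all neuron libraries, with 870 and 87 reads in Eed+/+ and 136, 169 and 295 in Eed-/- neurons. Cspg4 (ENSMUSG00000032911.6, chromosome 9, 56865033 to 56899870) had 205, 152, 140, 33 and 156 reads in Eed+/+ and 0, 433, 31, 1 and 97 in Eed-/- astrocytes. Neurons had 253 and 46 reads of it with Eed and 120, 220 and 315 without. Cspg4 lay between 93.9 and 198 CPM in neurons, and its astrocyte values ran from 0 to 288 CPM on both sides of that range. Because pericytes use Cspg4 and fibroblasts use Pdgfra, markers of both were read: 6 mural cell markers summed to 0 to 196 CPM in astrocyte and 26.7 to 150 CPM in neuron libraries, with at most 5 of the 6 at any reads. The 5 fibroblast markers summed to 3.38 to 2037 CPM in astrocyte libraries, the highest being Eed-/- replicate 3 where Pdgfra had 0 reads, and to 14.9 to 48.8 CPM in neurons. Their part in the Pdgfra and Cspg4 values was not tested.

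Gpr17 (ENSMUSG00000052229.5, chromosome 18, 31942997 to 31949636), the receptor of committed precursors, lies in the Lims2 locus, so overlapping reads are set aside. It had 363, 49, 10, 0 and 100 reads in Eed+/+ astrocytes and 0, 43, 0, 0 and 972 in Eed-/- astrocytes. It had 930 and 49 reads in Eed+/+ neurons and 284, 94 and 487 in Eed-/- neurons. Eed-/- astrocyte replicate 5 (983 CPM) was the highest of all 15 libraries, and the neuron libraries held 48.2 to 499 CPM.

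The 3 later genes divided the astrocyte libraries more sharply. Enpp6 (ENSMUSG00000038173.15, chromosome 8, 46986887 to 47096762), which marks newly forming oligodendrocytes, had 414, 0, 0, 0 and 1 reads in Eed+/+ and 0, 0, 0, 0 and 154 in Eed-/- astrocytes. All 5 neuron libraries had Enpp6 reads, 259 and 2 in Eed+/+ and 58, 47 and 194 in Eed-/- cells. Myrf (ENSMUSG00000036098.15, chromosome 19, 10208272 to 10240748) had 82, 8, 15, 1 and 0 reads in Eed+/+ and 0, 0, 0, 0 and 81 in Eed-/- astrocytes, 68 and 0 in Eed+/+ neurons and 6, 9 and 42 in Eed-/- neurons. High Enpp6 and high Myrf thus fell in the same astrocyte libraries, Eed+/+ replicate 1 and Eed-/- replicate 5.

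Mbp (ENSMUSG00000041607.16, chromosome 18, 82475146 to 82585637), myelin basic protein, had 4148, 1, 0, 26 and 1 reads in Eed+/+ astrocytes and 0, 76, 1, 176 and 213 in Eed-/- astrocytes. It had 208 and 14 reads in Eed+/+ neurons and 39, 36 and 529 in Eed-/- neurons. Most Mbp reads of the astrocyte groups came from Eed+/+ replicate 1, at 2172 CPM, while the other Eed+/+ astrocyte libraries held from 0 CPM to the value of 26 reads. The annotated gene also spans the longer Golli transcripts, which are made outside the lineage, and gene counts do not separate them. In Eed-/- astrocyte replicate 4 the 176 Mbp reads stood beside 0 reads of Enpp6, Myrf and Sox10.

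**Figure D2:**
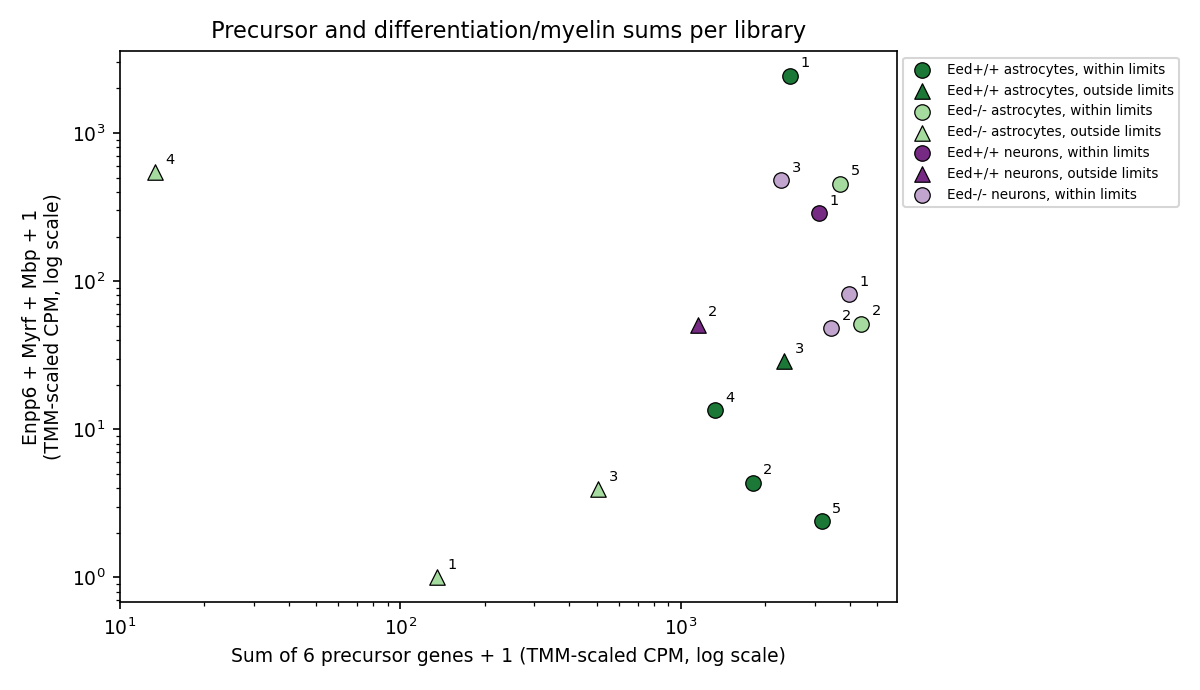
Sum of the 6 precursor genes (x axis) against the sum of Enpp6, Myrf and Mbp (y axis) for each of 15 libraries, both in TMM-scaled CPM plus 1 on log scales; numbers are replicates, circles are libraries within the read and alignment limits and triangles those outside. At precursor sums between 2276 and 4389 CPM the later sum ranged from 1.39 to 2432 CPM.

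Summed over a library, the 6 precursor genes came to 2218 ± 700 CPM (SD, n = 5) in Eed+/+ and 1748 ± 2118 (n = 5) in Eed-/- astrocytes, and to 2124 ± 1384 (n = 2) and 3221 ± 862 (n = 3) in the corresponding neurons. The spread in Eed-/- astrocytes came from libraries at 134, 505 and 12.4 CPM, all outside the limits, against 4389 and 3700 CPM in the 2 within them. Enpp6, Myrf and Mbp together came to 495 ± 1082 CPM in astrocytes with Eed and 210 ± 266 in those without, and to 169 ± 168 and 203 ± 242 in the neurons. Without Eed+/+ astrocyte replicate 1 the mean later sum of astrocytes with Eed was 11.3 CPM, below the 210 CPM of those without. In neurons the mean later sum was 63.9 CPM without Eed-/- replicate 3, and in Eed+/+ cells 49.9 CPM without replicate 1 and 287 CPM without replicate 2, so the order of the genotypes rested on single libraries there too. Without Olig1 and Olig2 the mean precursor sum was 414 CPM in Eed+/+ and 501 CPM in Eed-/- astrocytes, the latter falling to 211 CPM without replicate 5. In neurons it was 978 CPM in Eed+/+ and 607 CPM in Eed-/- cells, the former being 590 CPM without replicate 1 and 1367 CPM without replicate 2. The groups overlapped for both sums. Precursor and later sums did not run together: Eed+/+ astrocyte replicate 5 had a precursor sum of 3176 CPM with a later sum of 1.39 CPM, and Eed+/+ astrocyte replicate 1 had 2455 CPM with 2432 CPM.

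Other genes of the lineage were read from 3 lists. The 10 other precursor genes all reached 3 reads in every neuron library and 8 to 10 of them did so in Eed+/+ and 1 to 10 in Eed-/- astrocyte libraries. Their sum went another way than that of the 6 members in some libraries, at 5081 and 3813 CPM in Eed-/- astrocyte replicates 3 and 4 and 10718 CPM in Eed+/+ neuron replicate 2. Of 6 other early differentiation genes, 5 or 6 passed 3 reads in each neuron library. Among 11 other myelin genes, Eed+/+ astrocyte replicate 1 had 317 reads of Mag, 481 of Cldn11 and 3045 of Cnp. In the other 4 Eed+/+ astrocyte libraries Mag had 0 or 1 reads and Cldn11 0 to 6. Eed-/- astrocyte replicate 5 had 356 reads of Bcas1, 408 of Tnr and 58 of Neu4, which mark precursors and early differentiation, and 6 of Mag. The 11 other myelin genes summed to 2869 CPM in Eed+/+ replicate 1 and 1010 CPM in Eed-/- replicate 5, against 1.69 to 705 CPM in the other 13 libraries. Mog and Opalin, genes of mature myelinating cells, had at most 12 and 3 reads in any library.

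**Figure D3:**
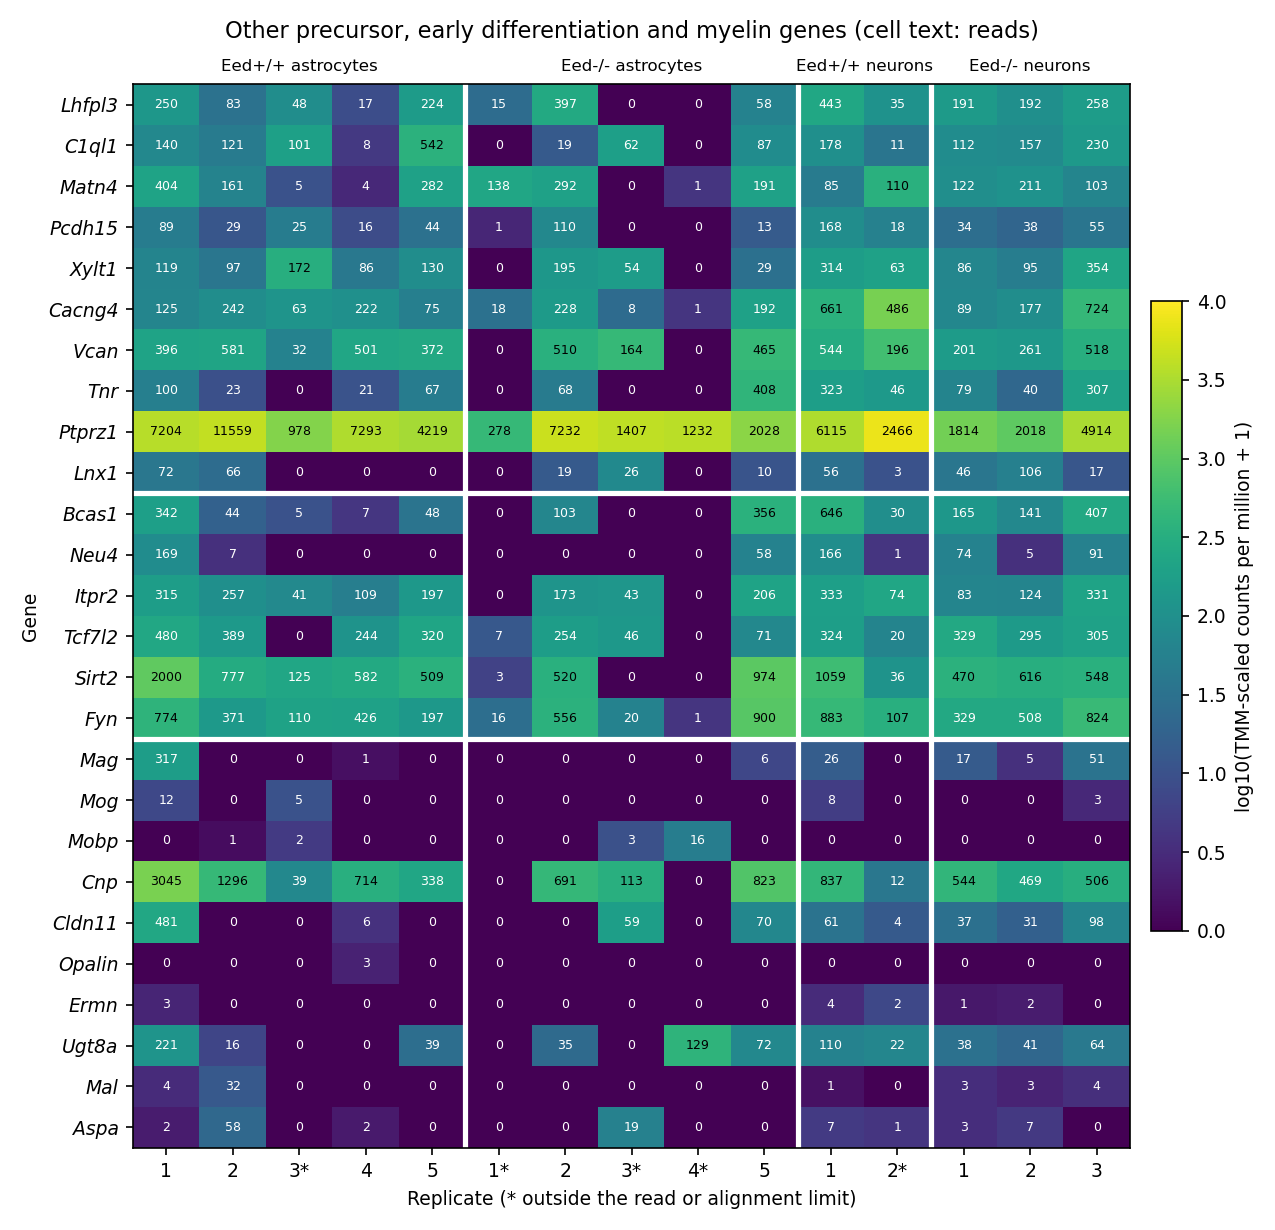
Reads (printed) and log10 of TMM-scaled CPM plus 1 (colour) of 10 other precursor genes, 6 other early differentiation genes and 10 of the 11 other myelin genes (blocks from top to bottom) in the 15 labelled libraries. Eed+/+ astrocyte replicate 1 stands out in the myelin block, with 317 reads of Mag and 481 of Cldn11.

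The design asks whether the genes differed between cells on either side of the lacZ gate. No member passed an adjusted p of 0.05 by edgeR's quasi-likelihood test with Benjamini-Hochberg adjustment, where 0.0150% of 13367 genes tested did, and none did so by DESeq2 or limma-voom. The 3 tools also called 0 of the 10 astrocyte and 0 of the 10 neuron markers, whose edgeR medians were -0.66 and 0.34. The absence of a call therefore does not show that a gene was equal between the gates. At an unadjusted p under 0.05 there were 0 members by edgeR, 0 by DESeq2 and 5 by limma-voom with quality weights, which gives less weight to variable libraries; these were Olig2, Sox10, Pdgfra, Gpr17 and Enpp6, all with positive differences. The same unadjusted threshold took in 5.51%, 5.92% and 13.1% of all genes by the 3 tools in that order, and the median of all genes by limma-voom was 0.71. The fitted log2 difference of neurons minus astrocytes was 1.54 ± 0.90 (SE) for Olig2, 1.30 ± 0.95 for Pdgfra, 1.19 ± 0.93 for Gpr17 and 0.88 ± 1.10 for Enpp6. It was 0.42 ± 1.00 for Cspg4, 0.14 ± 0.98 for Sox10, -0.06 ± 0.74 for Olig1, -0.07 ± 1.27 for Myrf and -1.43 ± 1.01 for Mbp. The members' median was 0.42 and that of all genes 0.34. The smallest adjusted p was 0.996, for Olig2.

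All 9 genes overlapped between astrocyte and neuron libraries, also within the 10 well-aligned libraries, where the medians of Olig2 were 375 CPM in neurons and 238 in astrocytes and those of Gpr17 264 and 48.9. Over all tested genes 0.471% did not overlap between the cell types, and 3.59% within the limits. In the first run of library numbers alone, where both cell types occur, the log2 differences were 1.76 for Olig2, 1.11 for Pdgfra, 2.86 for Gpr17, 4.42 for Enpp6, 1.40 for Sox10 and 3.37 for Myrf, against 0.38 for Cspg4, -0.21 for Olig1 and -0.58 for Mbp. The median of all genes was 0.42 there and no member was called. Without Eed+/+ astrocyte replicate 1, the difference of Mbp turned from -1.43 to 2.04. Without Eed-/- astrocyte replicate 5, that of Enpp6 rose to 5.07, and without Eed+/+ neuron replicate 1 it fell to -0.89.

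**Figure D4:**
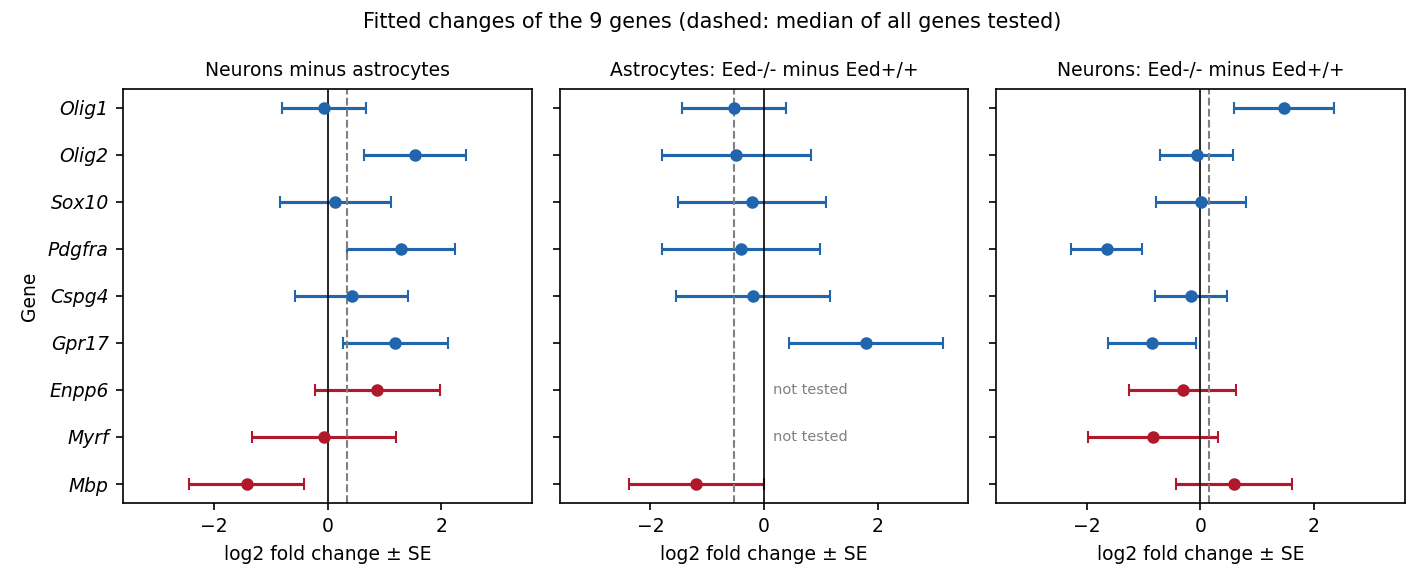
Fitted log2 fold changes with standard errors (edgeR) of the 9 genes in the cell type comparison over 15 libraries and in the genotype comparison of 10 astrocyte and of 5 neuron libraries; blue marks precursor genes, red differentiation and myelin genes, and the dashed line the median of all genes tested. No gene passed the adjusted threshold; Pdgfra in neurons (-1.65 ± 0.63) had the smallest unadjusted p.

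Within each genotype no member was called between the cell types either. The log2 differences ran from -2.48 to 2.46 in Eed+/+ cells, where 0.00748% of genes were called, and from -0.49 to 1.82 in Eed-/- cells, where 0.0598% were. At an unadjusted p under 0.05 edgeR and DESeq2 gave 0 members in both and limma-voom gave 4 and 2. Of all genes, 2.29% and 7.0% had such a p by edgeR, 3.33% and 5.58% by DESeq2 and 7.49% and 13.6% by limma-voom. Of the 8 genes called in Eed-/- cells 3 were erythroid markers, lower in neurons, and the 10 microglia markers had a median of -4.77 there, with 0 called and 9 at an unadjusted p under 0.05 by edgeR. The 5 fibroblast markers had a median of -5.19 there, with 0 called and 3 at such a p by edgeR. The part of these cell types in the members' values was not tested. Nor was any member called for an interaction of genotype and cell type (0.0524% of genes called, 0 members at an unadjusted p under 0.05 by edgeR and DESeq2 and 1 by limma-voom), with fitted terms from -2.54 to 2.10. The 3 tools gave such a p to 3.61%, 3.45% and 10.6% of all genes, and 2 of the 7 genes called were erythroid markers.

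Of the 46 other genes of the lineage, 40 were tested between the cell types, 0 were called by edgeR, DESeq2 or limma-voom, and 4, 1 and 13 had an unadjusted p under 0.05, beside the 5.51%, 5.92% and 13.1% of all genes. Their median log2 difference was 0.49 against 0.34 for all genes. The precursor gene Cacng4, an AMPA receptor auxiliary subunit, was at 2.40 ± 0.89 (adjusted p 0.529) and Tnr, tenascin-R, at 1.38 ± 1.02. Among early differentiation genes Bcas1 was at 1.51 ± 0.98 and Neu4 at 1.51 ± 1.17. Among regulators Sox6 was at 1.09 ± 0.96, and among signals Bmp4 was at 2.02 ± 1.15 and the Notch ligand Jag1 at 1.48 ± 1.10. Among myelin genes Mobp was at -4.87 ± 1.92 (adjusted p 0.615), resting on 1 to 16 reads in 4 astrocyte libraries. None of these passed the test.

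Loss of Eed was compared with the control in astrocytes over 10 libraries. None of the 7 members tested was called, and 0% of 8956 genes tested were, with 0 members and 108 genes at an unadjusted p under 0.05 by edgeR and 0 members by DESeq2 and limma-voom, with 297 and 370 genes. The median of all genes was -0.54 on the log2 scale with TMM scaling and -0.37 with relative log expression factors, so the values are read against it. The Eed-/- minus Eed+/+ difference was -0.52 ± 0.92 for Olig1, -0.49 ± 1.31 for Olig2, -0.20 ± 1.30 for Sox10, -0.40 ± 1.39 for Pdgfra and -0.19 ± 1.36 for Cspg4, all within 0.35 of the median of all genes. Gpr17 was at 1.80 ± 1.35 and Mbp at -1.19 ± 1.19. Enpp6 and Myrf did not pass the filter on low counts, each with reads in 1 of 5 Eed-/- libraries. All 9 genes overlapped between the genotypes, where 1.43% of genes did not.

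These astrocyte values followed single libraries. Without Eed-/- replicate 5, Gpr17 turned to -2.92, and without Eed+/+ replicate 1, Mbp turned to 5.96. Within the 6 well-aligned libraries, 4 Eed+/+ and 2 Eed-/-, all 6 precursor genes had positive differences, 0.67 for Olig1, 0.53 for Olig2, 1.32 for Sox10, 0.89 for Pdgfra, 1.44 for Cspg4 and 2.89 for Gpr17, and none was called. In the first run of library numbers Pdgfra, Cspg4 and Sox10 were at 0.18, 0.62 and -0.66, and in the second at -1.50, -1.35 and 0.36. The median of all genes was -0.02 in the well-aligned libraries, -0.70 in the first run and -0.68 in the second. Microglia markers, 10 genes, summed to 10229 CPM in Eed-/- astrocyte replicate 1 and 3424 in replicate 3, against 13.9 to 492 in Eed+/+ astrocytes, and 5 erythroid markers to 5723 and 7801 CPM in Eed-/- replicates 1 and 4. Their part in the low precursor sums of these libraries was not tested. The 46 other lineage genes gave 0 calls among 29 tested, 0 by DESeq2 and limma-voom, and 0, 1 and 1 at an unadjusted p under 0.05, with a median of -0.09.

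In neurons the same comparison set 3 Eed-/- against 2 Eed+/+ libraries. No member was called, nor was any of 11862 genes tested (0%), while 862 genes and 1 member had an unadjusted p under 0.05, and 2 members did by DESeq2 and by limma-voom, with 1122 and 905 genes. Pdgfra was lower in Eed-/- neurons by the fitted value, at -1.65 ± 0.63 (unadjusted p 0.0206, adjusted p 0.668 by edgeR). Over these 5 libraries Pdgfra was the only member whose groups did not overlap, 86.7 to 186 CPM against 272 and 467 CPM, while 23.3% of all genes did not. Within the limits, where 1 Eed+/+ library remained, 5 members were lower in Eed-/- neurons without overlap, and 39.4% of all genes did not overlap. Olig1 was at 1.47 ± 0.89, Gpr17 at -0.86 ± 0.78, Myrf at -0.84 ± 1.14, Mbp at 0.59 ± 1.03 and Enpp6 at -0.31 ± 0.94. Cspg4 (-0.16 ± 0.63), Olig2 (-0.06 ± 0.64) and Sox10 (0.01 ± 0.79) lay near 0, and the median of all genes was 0.15.

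Without Eed+/+ neuron replicate 1, the fit called Olig1 (3.21, adjusted p 0.0141) and Sox10 (2.66, adjusted p 0.0309), but 2601 genes were then called and the only remaining Eed+/+ library had 31.0% of reads aligned, 70 Olig1 reads and 7 Sox10 reads. Without replicate 2 instead, Olig1 was at 0.72 and Sox10 at -0.82 and neither was called. Fibroblast markers summed to 48.8 and 25.0 CPM in Eed+/+ and 14.9 to 42.8 CPM in Eed-/- neurons, beside the Pdgfra values. The 10 neuron markers summed to 1798 and 1042 CPM in Eed+/+ and 1592 to 2704 CPM in Eed-/- neurons. Of these 10 markers 8 had a positive difference, with a median of 1.55, and 0 were called by edgeR or limma-voom, 1 by DESeq2 and 2 unfiltered, with 3 at an unadjusted p under 0.05 by edgeR, 5 by DESeq2 and 2 by limma-voom. The part of either list in the Pdgfra difference was not tested. Of the 46 other lineage genes 37 were tested and 0 called by any of the 3 tools, with 4 at an unadjusted p under 0.05 by edgeR, 6 by DESeq2 and 8 by limma-voom, where 7.27%, 9.46% and 7.63% of all genes had such a p. The 10 other precursor genes among them had a median of -1.09, with 8 negative differences and 2, 3 and 6 genes at that p by the 3 tools. The 4 by edgeR were Cacng4 (-2.36 ± 0.91) and Pcdh15 (-1.56 ± 0.68), both precursor genes, Lingo1 (1.98 ± 0.80), and Nkx6-2, with 0 reads in both Eed+/+ and 2, 13 and 23 in Eed-/- neurons; they were named after their values were seen.

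The genes whose pattern was most like the mean log2 level of the 6 precursor genes over the 15 libraries were Pllp (Pearson's r 0.950), Mapk6 (0.949), Bcas1 (0.935), Lancl2 (0.933) and Bms1 (0.933). Pllp, which encodes the myelin proteolipid plasmolipin, and Bcas1 are known from the lineage. The log2 number of gene reads had r 0.586 with the precursor mean over the 15 libraries and -0.61 within the 10 well-aligned ones. Within those 10 libraries the 5 genes stood at 0.969, 0.836, 0.870, 0.858 and 0.772 in the same order. The part of library depth in these likenesses was not tested. For Mbp the nearest were Gm37274 (0.840), Cep55 (0.838), Klhl2 (0.803), Dock4 (0.802) and Ugt8a (0.793), the last the enzyme that makes the myelin lipid galactosylceramide. Within the limits Gm37274 was at 0.841 and Ugt8a at 0.62, with the other 3 between. These are descriptions over sparse counts with no test.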

How the data were processed

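Green cells were sorted at postnatal day 4 and their polyA RNA was made into Smart-Seq v2 libraries. The authors aligned reads with STAR to GRCm38 (mm10) and deposited raw read counts per gene; the unstranded count column was used, in which reads over overlapping genes are set aside as ambiguous (0.934% to 5.66% of unique reads) and strands are not told apart. No source used here names the annotation release. Each file's 4 summary lines were left out of the totals. Of 53379 gene identifiers 53274 matched GENCODE M21, which gave symbols, positions and exon lengths. Counts were scaled by TMM factors and tested with edgeR 4.0.16 (filterByExpr, robust quasi-likelihood fits, Benjamini-Hochberg adjustment, threshold 0.05, and the study's 0.2 as an alternative), with 1 fit over all 15 libraries for the cell type comparisons and the interaction and 1 fit per cell type for genotype. DESeq2 1.42.0, limma-voom (limma 3.58.1) with quality weights, other scaling, no filter, the well-aligned libraries alone, a run covariate, a replicate block and each library left out were alternatives. The study's own comparison used DESeq2 and removed libraries it does not name. The fits were tested on simulated data in R 4.3.3. Members and gene lists were chosen with earlier results of these data known. Named genes were the 9 members in each comparison, the genes of 5 other lineage lists that were called between cell types or else the 2 with the smallest p in each list, any list gene called between genotypes, and the 5 most similar patterns, correlated as log2(CPM + 1). No pair of libraries held near-identical counts (highest Spearman correlation between libraries 0.881). Replicates were single animals, and the sex of each was not recorded in the labels. Some genes the naming rule selects are not reported here.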

Additional observations from a re-analysis of the deposited data

Results flagged for a closer look

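In 22 groups of 5 astrocyte libraries (the 9 genes and both sums in each genotype) a library was looked for whose gap to its neighbour exceeded 0.71 of the group's range, Dixon's 95% critical value, which chance exceeds in about 1 of 20 groups. There were 8 such values, in 3 libraries. Eed-/- astrocyte replicate 5 stood apart in Gpr17 (983 CPM, gap 0.971 of the range), Sox10 (503 CPM, 0.745), Enpp6 (156 CPM) and Myrf (81.9 CPM), the last 2 with all other libraries of the group at 0, where any reads at all exceed the value. The rate of 1 in 20 is for normally distributed values and not for groups mostly at 0. Eed+/+ astrocyte replicate 1 stood apart in Mbp (2172 CPM, 0.994), Enpp6 (217 CPM, 0.997) and the sum of the 3 differentiation and myelin genes (2432 CPM, 0.989). Eed-/- astrocyte replicate 2 stood apart in Pdgfra (306 CPM, 0.756), in a group where 3 libraries had no Pdgfra reads. The values of 1 library are not independent of each other, since the genes belong to 1 lineage, and no cause was tested.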

How the results depend on the processing

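Across the alternatives, 33 log2 differences of members and named lineage genes were refitted 632 times. Of these refits 555 kept their direction and their side of the threshold, 75 changed sign without a call and 2 became calls, and 13 of the 33 differences never changed sign. The call counts over all genes are small, so they moved easily. At an adjusted p of 0.05, member calls stayed at 0 in every comparison and alternative run except without Eed+/+ neuron replicate 1, where they were 2, so that leaving out neuron libraries gave 0 to 2. At 0.2 members passed in 4 of 130 combinations of comparison and setting. Gpr17, Enpp6 and Myrf did so between cell types without Eed-/- astrocyte replicate 5 (lowest adjusted p 0.0775 by edgeR, 1027 genes passing) and, in Eed-/- cells, without that library (0.0569, 1948 genes) and in the first run (0.0797, 1851 genes). In neurons without Eed+/+ replicate 1, 5 members and 5609 genes passed. Depth limits the low genes most: 3 reads equal up to 14.2 plain CPM, without TMM scaling.

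Genes called between cell types, 2 in the analysis as reported, were 6 at a threshold of 0.2 and 5 by DESeq2. They were 0 without the filter, by limma-voom, within the limits, with the run covariate, in the first run and with the replicate block, and 0 to 5 leaving out a library (0 without Eed+/+ astrocyte replicate 2, 5 without Eed-/- astrocyte replicate 5). In Eed+/+ cells 1 call became 5 at 0.2, 6 with relative log expression (RLE) factors, 2 unfiltered, 8 by DESeq2 and 7 with the run covariate, and 0 by limma-voom, within the limits, in the first run and with the block, with 0 to 5 leaving out a library. In Eed-/- cells 8 calls became 15 at 0.2, 3 unfiltered, 5 by limma-voom, 4 with the block and 0 within the limits and in the first run, with 0 to 26 leaving out a library. The interaction's 7 calls became 13 at 0.2, 21 with RLE factors, 2 unfiltered, 2 with the block and 0 by limma-voom, within the limits and in the first run, with 1 to 12 leaving out a library. For genotype in astrocytes 0 calls became 5 unfiltered, 1 by DESeq2, 4 in the first run and 46 in 1 fit over all libraries, with 0 to 1 leaving out a library. In neurons 0 calls became 127 unfiltered, 26 by DESeq2, 1 within the limits and 3 in 1 fit over all libraries, with 0 to 2601 leaving out a library.

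Deviations from group means were correlated between same-numbered libraries at -0.26 to 0.17. With few libraries per group, these correlations cannot show whether same-numbered libraries share an animal. With the replicate block the cell type differences were 4.26 for Olig2, 5.30 for Enpp6, 4.28 for Gpr17 and 4.00 for Pdgfra. These were at an unadjusted p under 0.05 by edgeR, and the other members were not. Cspg4 was at 1.15 and Sox10 at 3.09. No member was called there, 5.88% of all genes had such a p and the median of all genes was 1.11. The cell type differences that changed sign with the block were Olig1 (0.042), Myrf (2.61) and Mbp (2.40). Among genotype differences in astrocytes Gpr17 (-1.60) and Mbp (5.59) changed sign, and in neurons Olig2 (0.17) and Mbp (-1.64).

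Under limma-voom, cell type differences changed sign for Olig1 (0.36), Myrf (1.44) and Mbp (0.78), and Myrf also did so with the run covariate (1.25) and in the first run (3.37). Genotype differences in astrocytes changed sign under limma-voom for Pdgfra (2.80), Cspg4 (1.36), Olig1 (0.012), Sox10 (3.35) and Mbp (1.29), and within the limits for Pdgfra (0.89), Cspg4 (1.44), Olig1 (0.67), Olig2 (0.53) and Sox10 (1.32). They did so in the first run for Pdgfra (0.18), Cspg4 (0.62) and Gpr17 (-3.39), in the second for Sox10 (0.36) and Mbp (6.52), and with the run covariate for Mbp (0.34). DESeq2 gave no p for Gpr17 and Mbp there. In neurons Olig2 changed sign unfiltered (0.048), under limma-voom (0.17) and in 1 fit over all libraries (0.046), Sox10 within the limits (-0.82) and Mbp under limma-voom (-1.48).

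Leaving out each library, cell type differences ranged from -0.97 to 0.41 for Olig1, -1.22 to 1.10 for Sox10, -0.89 to 5.07 for Enpp6, -3.85 to 3.67 for Myrf, -2.62 to 2.04 for Mbp and -0.42 to 5.02 for Neu4. Genotype differences in astrocytes ranged from -2.33 to 0.19 for Pdgfra, -1.15 to 0.45 for Cspg4, -1.29 to 0.092 for Olig2, -2.19 to 0.52 for Sox10, -2.92 to 2.97 for Gpr17 and -2.66 to 5.96 for Mbp. In neurons they ranged from -0.50 to 0.049 for Cspg4, -0.43 to 0.21 for Olig2, -0.82 to 2.66 for Sox10, -1.42 to 0.17 for Gpr17, -1.18 to 3.18 for Enpp6, -1.65 to 6.93 for Myrf and -1.76 to 1.38 for Mbp. The 6.93 for Myrf came without Eed+/+ neuron replicate 1, where the only Eed+/+ library left had 0 Myrf reads. Its size therefore cannot be read as a fold change. The cause of the changes across the alternatives was not tested, beyond the libraries each alternative leaves out.

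Without Olig1 and Olig2 the mean precursor sum fell by construction, to 414 CPM in Eed+/+ and 501 CPM in Eed-/- astrocytes and to 978 CPM in Eed+/+ and 607 CPM in Eed-/- neurons. The order of the genotypes then differed from that of the full sum, but not without Eed-/- astrocyte replicate 5 (211 CPM) or, in neurons, without Eed+/+ replicate 1 (590 CPM). Plain CPM moved no group's sum by more than its SD.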

Other observations

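The library whose title and cell type label conflict had 221456 gene reads and 17.7% of reads aligned uniquely. It held 1 read of Pdgfra, 4 of Olig1 and 2 of Mbp and none of the other 6 genes, where 3 reads correspond to 13.5 plain CPM. It was put in no group.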
